A study of Caenorhabditis elegans with 6 samples.

Results

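The lipl genes of Caenorhabditis elegans encode relatives of human lysosomal acid lipase. Members were taken by symbol, lipl-1 to lipl-8, and all 8 were found among the 46926 genes of the deposited count table. Poly(A)-selected RNA was sequenced from whole wild-type worms labelled as L4 larvae. In 1 group of 3 libraries the worms had been exposed to FUDR at 50 µM. FUDR, or 5-fluoro-2′-deoxyuridine, is an analogue of a nucleoside, blocks thymidylate synthase and is used in worm ageing work to stop reproduction. The other 3 libraries came from untreated worms on plates of Escherichia coli OP50, the standard laboratory food. Both groups share the genotype, stage and tissue label, and no label names a transgene. The comparison addresses how FUDR exposure changes transcript levels.

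Lysosomal acid lipases cut triglycerides and sterol esters inside the lysosome and release fatty acids. In C. elegans several lipl genes are expressed in the intestine, which also stores fat, and several are known to be induced when food is withdrawn. The transcription factor HLH-30, the worm relative of TFEB, activates lipl genes on fasting, while MXL-3 represses them in fed worms. LIPL-4 is known for a signal that runs from the lysosome to the nucleus through the lipid-binding protein LBP-8 and the nuclear receptors NHR-49 and NHR-80, and its overproduction lengthens life.

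In FUDR-exposed worms lipl-1 rose 2.90-fold and lipl-5, by far the most abundant member, fell to 0.596 of its level in untreated worms. The other 4 members that could be tested, lipl-2, lipl-3, lipl-6 and lipl-7, did not pass the test. The remaining members, lipl-4 and lipl-8, had too few counts to be tested. Thus 1 of 6 tested members rose and 1 of 6 fell, at an edgeR adjusted p under 0.05. Over all 17022 genes tested, 41.0% were called, 20.0% as higher in FUDR and 21% as lower, so the family's share of calls was near the background. The median log2 fold change of the 6 tested members was −0.14, against 0.05 over all tested genes.

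Libraries held between 61312034 and 84750980 gene counts in FUDR and between 66005990 and 99234226 in OP50. FUDR replicates 1 and 3 lay furthest apart, with a chi-square of counts per degree of freedom of 157. It was 72.4 for FUDR replicates 2 and 3, 36.7 for replicates 1 and 2, and 18.7 to 63.6 for pairs of OP50 libraries. Pearson's r of log2 CPM was 0.9845, 0.9899 and 0.9922 for these FUDR pairs in turn, and 0.9882 to 0.9904 for OP50 pairs. All 48 markers of 6 tissues had counts in every library. CPM here are gene counts brought to one TMM-adjusted depth. The 16 intestine markers summed to between 7646 and 10009 CPM in FUDR and between 7604 and 8134 CPM in OP50. Of these 5 rose and 3 fell, and the share called, 50.0%, was near the 41.0% of all genes. The 10 germline markers summed to between 3170 and 4278 CPM in FUDR and between 6736 and 7218 CPM in OP50. Of these 9 fell, or 90.0% called against 41.0% of all genes. With 1 library left out, the calls of elt-2, ifb-2 and cpr-1 of intestine and htp-3 of germline were lost in some fits. Without FUDR replicate 1, spp-5 and gst-4 of intestine and glh-1 of germline were called. The htp-3 call was also lost with upper quartile scaling (edgeR adjusted p = 0.193) and with library size only (0.665). With library size only the erm-1 call of intestine was lost (edgeR adjusted p = 0.0538), and act-5, asp-1 and spp-5 were called higher. With upper quartile scaling spp-5 was called higher as well. In whole worms, fewer cells of a type and less RNA per cell cannot be told apart.

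Of the 8 genes, 7 lie on chromosome V and lipl-7 lies on chromosome IV (WBcel235, Ensembl release 115). They are not a tandem cluster, since the nearest protein-coding gene on either side of each member was never another lipl gene. The coding sequences of 7 members span between 401 and 411 codons, and that of lipl-6 is longer, at 591 codons. The genes lipl-1, lipl-2, lipl-5, lipl-6, lipl-7 and lipl-8 overlap no other annotated gene. The lipl-3 gene overlaps the chemoreceptor gene srw-107 on the same strand, and srw-107 had 0 counts in each of the 6 libraries. The lipl-4 gene overlaps a tRNA gene and the noncoding RNA gene K04A8.15 on the opposite strand, so reads of these 3 genes may not be told apart.

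The lipl-5 gene (WBGene00022642, chromosome V, 385746 to 387740, plus strand, 6 exons in its longest transcript) encodes a lysosomal lipase and had a higher mean level than 97.1% of all tested genes. It had 239, 236 and 208 CPM in the FUDR libraries, from 14997, 21816 and 18599 counts, against 374, 363 and 410 CPM in the OP50 libraries, from 35527, 21950 and 29859 counts. Every FUDR library lay below every OP50 library, and the libraries of a group lay close together. The mean was 228 ± 16.8 CPM in FUDR and 382 ± 24.9 CPM in OP50 (SD, n = 3 each). The log2 fold change was −0.75 ± 0.0969 (SE, edgeR adjusted p = 0.000633), with a 95% interval from 0.512 to 0.694 of the OP50 level. Its size exceeded that of 79.7% of all tested genes.

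The lipl-1 gene (WBGene00010062, chromosome V, 12919986 to 12921692, plus strand, 5 exons) encodes another lysosomal lipase. It had 64.7, 60.6 and 34.3 CPM in the FUDR libraries, against 18.9, 15.2 and 20.8 CPM in the OP50 libraries. All FUDR libraries lay above all OP50 libraries, and FUDR replicate 3 was well below the other FUDR libraries. The mean was 53.2 ± 16.5 CPM in FUDR and 18.3 ± 2.88 CPM in OP50 (SD, n = 3 each). On the log2 scale FUDR was higher by 1.54 ± 0.234 (SE, edgeR adjusted p = 0.00158), with a 95% interval from 1.999-fold to 4.22-fold. The change was larger in size than that of 94.9% of all tested genes. Without FUDR replicate 3 the log2 fold change was 1.77 (edgeR adjusted p = 2.56e-05). Among the FUDR libraries, replicate 3 also had the lowest sum of intestine markers, 7646 CPM, and of body wall muscle markers, 4398 CPM, while the highest sums, 10009 and 10295 CPM, were in replicate 1. These sums rest largely on their most abundant genes, asp-1 (5494, 4301 and 3744 CPM in FUDR replicates 1 to 3) and unc-54 (5721, 3577 and 1996 CPM). The intestine markers mtl-2, pho-1, spp-5, gst-4 and clec-65 were instead highest in replicate 3, and the other intestine markers were lowest there. The muscle marker unc-27 changed little, at 980, 939 and 947 CPM. The part of these shifts in the lipl-1 level was not tested.

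**Figure D1:**
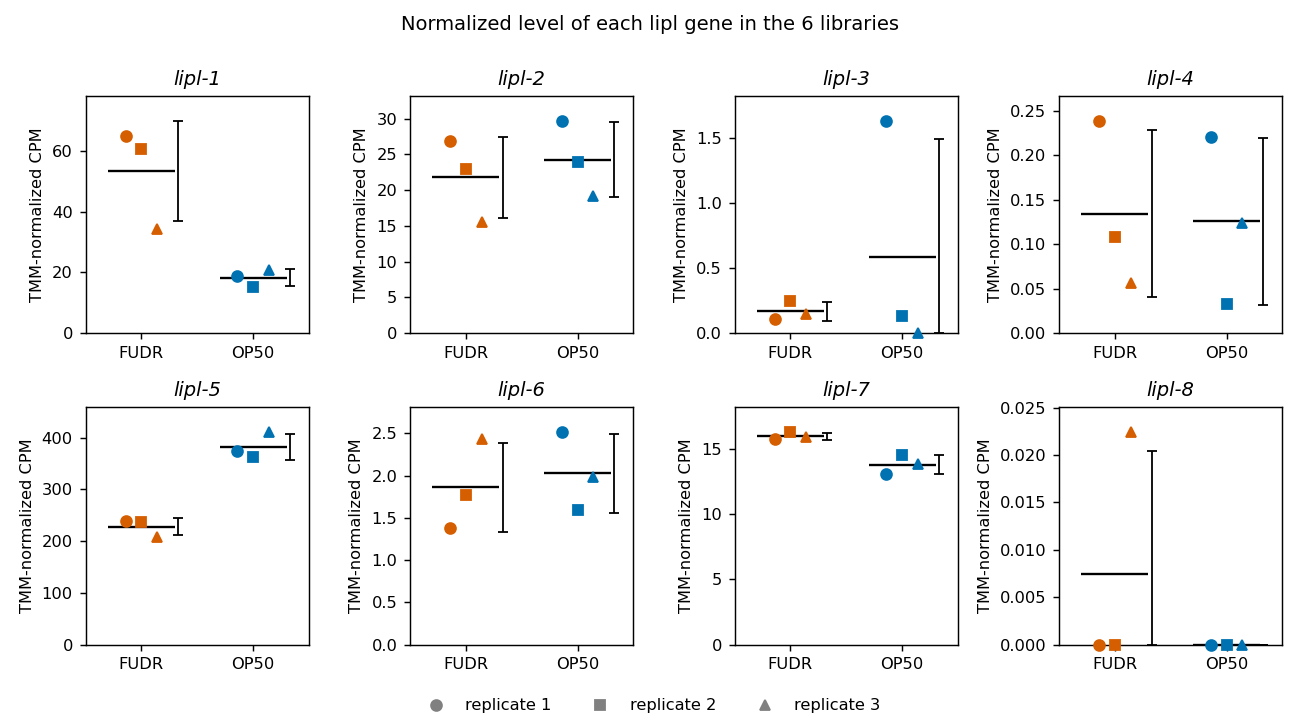
TMM-normalized CPM (vertical axes, each from 0) of the 8 lipl genes, with 1 point per library, the 3 FUDR libraries on the left of each panel and the 3 OP50 libraries on the right. Horizontal bars are means and whiskers are 1 SD, drawn no lower than 0. The groups part in lipl-1, lipl-5 and lipl-7, and the lipl-3 mean in OP50 rests on replicate 1, at 1.63 CPM.

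The lipl-7 gene (WBGene00008510, chromosome IV, 10239278 to 10241823, minus strand, 6 exons) is the family's member outside chromosome V. It had 15.7, 16.3 and 15.9 CPM in the FUDR libraries and 13.1, 14.5 and 13.8 CPM in the OP50 libraries. The groups did not overlap, but the distance between them was small. Its log2 fold change of 0.21 ± 0.0912 (SE) did not pass the test (edgeR adjusted p = 0.0916), and the 95% interval ran from 1.004-fold to 1.34-fold. It passed at 0.36 with upper quartile scaling (edgeR adjusted p = 0.0133) and 0.44 with library size only (edgeR adjusted p = 0.00886), and with a filter of 5 CPM in 3 libraries (0.32, edgeR adjusted p = 0.0168). It did not pass with RLE scaling (0.19, edgeR adjusted p = 0.133), in DESeq2 (adjusted p = 0.206) or with any 1 library left out (edgeR adjusted p from 0.110 to 0.238). Upper quartile scaling and library size only also raised the median over all tested genes, by 0.15 and 0.23 on the log2 scale. Groups that did not overlap were found for 3 of 6 tested members, lipl-1, lipl-5 and lipl-7, against 54.7% of all tested genes.

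The lipl-2 gene (WBGene00009773, chromosome V, 9791567 to 9793241, plus strand, 5 exons) encodes a lysosomal lipase of the same size class. It had 26.8, 23.0 and 15.6 CPM in the FUDR libraries and 29.6, 24.0 and 19.2 CPM in the OP50 libraries. The groups overlapped, and the spread within each was wider than the distance between the means. Its log2 fold change was −0.16 ± 0.216 (SE, edgeR adjusted p = 0.589), and the 95% interval ran from 0.636-fold to 1.26-fold, so a change as large as that of lipl-1 lies outside it.

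The lipl-6 gene (WBGene00021963, chromosome V, 6931475 to 6934312, minus strand, 10 exons) is the member with the longest coding sequence. Its levels were 1.38, 1.76 and 2.43 CPM in the FUDR libraries and 2.51, 1.59 and 1.98 CPM in the OP50 libraries. The groups overlapped throughout. The log2 fold change was −0.12 ± 0.254 (SE, edgeR adjusted p = 0.723), with a 95% interval from 0.616-fold to 1.37-fold.

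The lipl-3 gene (WBGene00020016, chromosome V, 521595 to 524218, minus strand, 7 exons) was low in all libraries but 1. It had 7, 23 and 13 counts in the FUDR libraries and 155, 8 and 0 counts in the OP50 libraries. In CPM these were 0.111, 0.249 and 0.146 in FUDR and 1.63, 0.132 and 0 in OP50, where a floor of 3 counts in the library at 0 corresponds to 0.0412 CPM. A single library, OP50 replicate 1, thus carried nearly all of the reads in its group. The log2 fold change of −1.82 ± 1.24 (SE) did not pass (edgeR adjusted p = 0.275), and without OP50 replicate 1 its sign turned, to 1.44 (edgeR adjusted p = 0.312). In the same library the acyl-CoA synthetase gene acs-2, which is known to be induced by fasting, had 6.01 CPM, against 0.264 and 0.302 CPM in OP50 replicates 2 and 3, and 10.1, 5.1 and 2.23 CPM in the FUDR libraries. The acyl-CoA dehydrogenase gene acdh-1 was low there, at 12.9 CPM against 81.3 and 193 CPM in OP50 replicates 2 and 3. Both genes were picked out after their values were seen. Among OP50 libraries, replicate 1 was highest for 4 of 9 listed fasting response genes, replicate 2 for 2 and replicate 3 for 3. Those highest in replicate 1 were acs-2 itself, fil-2, ech-9 and, by a small margin, fat-7. The list was not sorted by the direction in which fasting changes each gene, so these counts do not measure a fasting response. For icl-1, replicate 1 was the lowest, at 86.8 CPM against 148 and 95.8 CPM. What set this library apart in lipl-3 was not tested.

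The lipl-4 gene (WBGene00019376, chromosome V, 6550171 to 6552186, plus strand, 5 exons in its longest transcript), whose product feeds the lysosome-to-nucleus signal, was close to the limit of detection. It had 15, 10 and 5 counts in the FUDR libraries and 21, 2 and 9 counts in the OP50 libraries, or 0.239, 0.108 and 0.0560 CPM in FUDR and 0.221, 0.0331 and 0.124 CPM in OP50. The groups overlapped, and it did not pass the count filter. With no filter its log2 fold change was 0.00 (edgeR adjusted p = 0.999). It passed the filter with some libraries left out, where it ran from −0.44 without OP50 replicate 2 (edgeR adjusted p = 0.668) to 0.34 without FUDR replicate 3 (edgeR adjusted p = 0.751). The lipl-8 gene (WBGene00013050, chromosome V, 14745684 to 14748708, minus strand, 7 exons) had 2 counts over the FUDR libraries, both in replicate 3, and 0 over the OP50 libraries, which allows up to 0.0131 CPM over that group. No difference in lipl-8 was detectable at this depth.

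**Figure D2:**
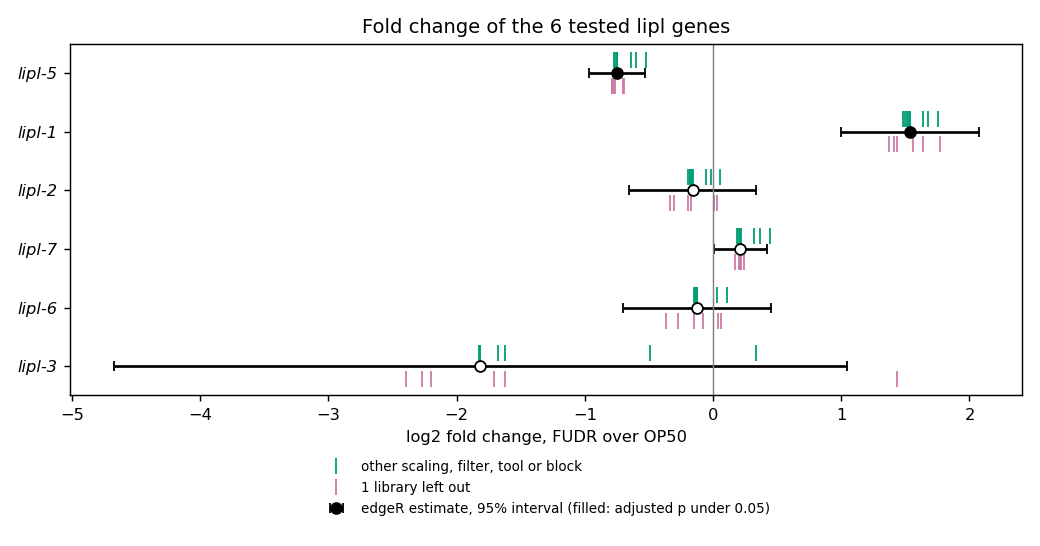
Log2 fold change, FUDR over OP50 (horizontal axis), of the 6 tested lipl genes (rows), with the edgeR estimate and its 95% interval in black. Green ticks give the value under another scaling, filter, tool or replicate block, and pink ticks the value with 1 library left out. The estimates of lipl-5 and lipl-1 stayed on their side of 0, while lipl-3 ran from −2.39 to 1.44.

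Levels of different members were compared as CPM per kilobase of exon. In FUDR the order was lipl-5 (180 ± 13.3), lipl-1 (39.8 ± 12.3), lipl-2 (17.1 ± 4.46), lipl-7 (12.3 ± 0.209), lipl-6 (0.964 ± 0.275), lipl-3 (0.117 ± 0.0499), lipl-4 (0.0813 ± 0.0569) and lipl-8 (CPM per kilobase, SD over 3 libraries). In that order lipl-2 overlapped lipl-7, and lipl-3 overlapped lipl-4, so those neighbours did not part beyond their spread. In OP50 the order was lipl-5 (303 ± 19.7), lipl-2 (19.0 ± 4.09), lipl-1 (13.7 ± 2.16), lipl-7 (10.7 ± 0.559), lipl-6 (1.05 ± 0.241), lipl-3 (0.409 ± 0.630), lipl-4 (0.0762 ± 0.0568) and lipl-8 at 0. There lipl-2 overlapped lipl-1, lipl-6 overlapped lipl-3, and lipl-3 overlapped lipl-4. So lipl-1 stood clear above lipl-2 and lipl-7 in FUDR, and in OP50 it was above lipl-7 alone of these.

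The lipl-1 gene took a larger part of the family's counts in FUDR. Its share of the family's summed counts per kilobase, which no scaling between libraries affects, was 17.8%, 17.2% and 11.8% in the FUDR libraries, against 4.09%, 3.44% and 4.24% in the OP50 libraries. The share of lipl-5 was 69.6%, 70.8% and 76.2% in FUDR, against 85.5%, 87.2% and 88.5% in OP50. Neither share overlapped between the groups. Per kilobase, lipl-1 stood at 25.6%, 24.2% and 15.5% of the lipl-5 level in the FUDR libraries, against 4.78%, 3.95% and 4.796% in the OP50 libraries. The mean of this ratio was 21.8% ± 5.45 in FUDR and 4.51% ± 0.486 in OP50 (SD, n = 3 each), 4.83 times as high in FUDR. Because these shares combine members whose changes are given above, they were not tested. The summed level of the family was 272, 264 and 217 CPM per kilobase in FUDR, against 346, 330 and 368 in OP50. With library size only it was 246 to 288 in FUDR and 302 to 332 in OP50. The groups did not overlap in either, as was so for 54.7% of all tested genes taken singly. As lipl-5 made up 69.6% to 88.5% of the sum, its fall mainly restates that of lipl-5, and the sum was not tested.

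**Figure D3:**
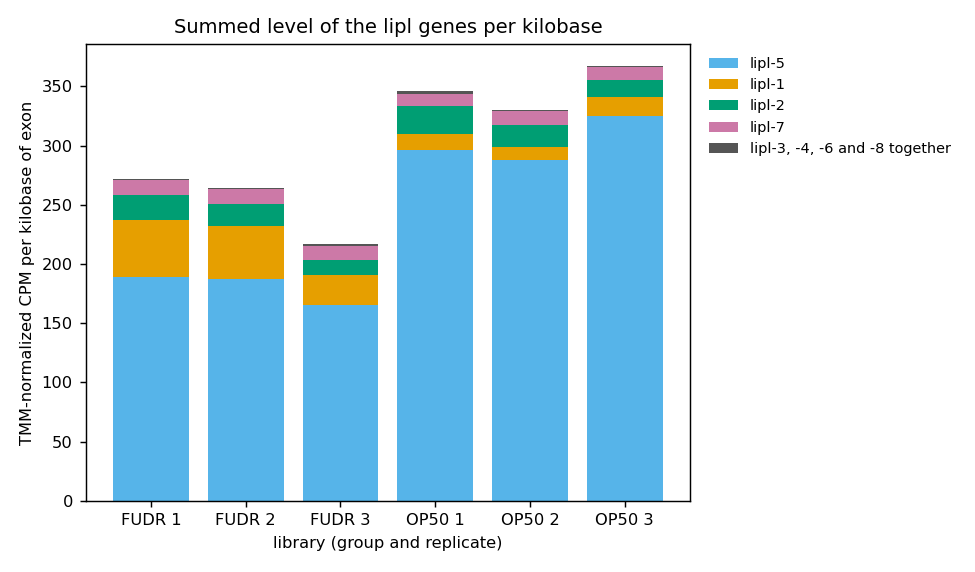
Summed level of the lipl genes in CPM per kilobase of exon (vertical axis, from 0) in each library (horizontal axis, 3 FUDR libraries and then 3 OP50 libraries), with 1 colour per gene and lipl-3, lipl-4, lipl-6 and lipl-8 drawn together. The sum ran from 217 to 272 in FUDR and from 330 to 368 in OP50, and the lipl-1 segment was larger in each FUDR library.

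The likeness of other genes to the most abundant member, lipl-5, and to the called member with the largest fold change, lipl-1, was measured as Pearson's r of log2 CPM over the 6 libraries, among 6443 named genes that averaged 5 CPM or more. The closest to lipl-5 were letm-1 (r = 0.9995), metl-13 (r = 0.9982) and ribo-1 (r = 0.998), which encode a mitochondrial inner membrane protein, a methyltransferase relative and a subunit of the oligosaccharyltransferase. The closest to lipl-1 were pbo-5 (r = 0.9992), sta-2 (r = 0.9953) and pap-1 (r = 0.9941), which encode a proton-gated channel subunit, a STAT-like factor and a poly(A) polymerase. An r of at least 0.95 was reached by 1393 of these genes with lipl-5 and by 108 with lipl-1. The libraries fall into the 2 groups, so a high r mainly reflects a shared difference between them, and its p was not computed. It does not reflect the size of that difference. The log2 fold changes were −0.51, −0.32 and −0.43 for letm-1, metl-13 and ribo-1, and 0.50, 0.66 and 0.18 for pbo-5, sta-2 and pap-1. Of these 6 genes pap-1 was not called (edgeR adjusted p = 0.0875).

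Of 12 tested regulators linked to lipl genes, 2 rose and 2 fell, so 33.3% were called, no more than the 41.0% of all genes. The repressor gene mxl-3 had 28.6, 16.2 and 19.1 CPM in the FUDR libraries, against 10.2, 9.57 and 12.4 CPM in the OP50 libraries, and rose by 0.99 ± 0.206 on the log2 scale (SE, edgeR adjusted p = 0.00586). The activator gene hlh-30 had 117, 93.6 and 58.4 CPM in FUDR and 91.9, 94.5 and 93.7 CPM in OP50. Its groups overlapped and it was not called (−0.06 ± 0.213, SE, edgeR adjusted p = 0.851). Of the others, the Mad-like factor gene mdl-1 rose (0.54), and the stress response factor gene skn-1 (−0.57) and the Mlx-like gene mxl-2 (−0.37) fell. The mxl-2 call was lost with upper quartile scaling (edgeR adjusted p = 0.0815) or library size only (0.256), and without OP50 replicate 1 (0.054) or 2 (0.0599). The mdl-1 call was lost without OP50 replicate 2 (edgeR adjusted p = 0.0584), and 7 regulators were called without FUDR replicate 1, 5 of them as lower.

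Among 7 tested partners of LIPL-4 signalling, 2 rose and 1 fell, and the share called, 42.9%, was near the 41.0% of all genes. The gene of the lipid chaperone LBP-3 rose by 0.44 and that of the neuropeptide NLP-11, which acts with LBP-3 downstream of LIPL-4, rose by 0.50 on the log2 scale. The lbp-8 gene, like lipl-4 itself, was near the limit of detection, with 0, 7 and 12 counts in the FUDR libraries and 34, 23 and 22 counts in the OP50 libraries. The groups did not overlap, and its log2 fold change was −2.18 ± 0.675 (SE, edgeR adjusted p = 0.03). It is the 1 fall of the list, and it passed the count filter through the OP50 libraries alone, where it was higher, so its count as a call is no support for a change. That call was lost without FUDR replicate 2 (edgeR adjusted p = 0.0995) or OP50 replicate 1 (0.0751), 2 (0.0767) or 3 (0.0575). The nuclear receptor genes nhr-49 (−0.16, edgeR adjusted p = 0.287) and nhr-80 (0.02, edgeR adjusted p = 0.9) were not called. With upper quartile scaling or library size only, 4 partners rose.

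Fat is also released outside the lysosome, and 6 of the 8 tested genes of cytosolic lipolysis were called, 2 as higher and 4 as lower, or 75.0% against 41.0% of all genes. The fasting-induced lipase gene fil-1 had 15.3, 15.1 and 16.7 CPM in the FUDR libraries, against 1.59, 1.22 and 1.92 CPM in the OP50 libraries, and rose by 3.31 ± 0.167 on the log2 scale (SE, edgeR adjusted p = 1.32e-05). Its relative fil-2 had 0.923, 1.36 and 0.885 CPM in FUDR, against 0.242, 0.149 and 0.055 CPM in OP50, with a log2 fold change of 2.78. It passed the count filter through the FUDR libraries alone, and without it 1 of 7 genes rose and 4 fell. The lipid droplet coat gene plin-1 fell by 0.94, the hormone-sensitive lipase gene hosl-1 by 0.58 and lid-1, whose product activates the ATGL-1 lipase, by 0.37 on the log2 scale. The triglyceride lipase gene atgl-1 fell by 0.48, a call lost with upper quartile scaling (edgeR adjusted p = 0.0964), with library size only (0.155) and without FUDR replicate 2 (0.0671) or OP50 replicate 1 (0.0936), 2 (0.0982) or 3 (0.0756). The lid-1 call was lost with library size only (−0.15, edgeR adjusted p = 0.193). With that scaling 4 genes of this list rose and 2 fell.

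In the lips family of predicted lipases, which lies outside the lysosomal acid lipases, 4 of 11 tested genes rose and 0 fell. The share called, 36.4%, was not above the 41.0% of all genes, of which 20.0% were higher in FUDR. They were lips-17 (0.91), lips-15 (0.53), lips-10 (0.76) and lips-1 (1.31), and these 4 were higher under each scaling tried. The genes lips-2, lips-8 and lips-11 did not pass the count filter. The median log2 fold change of the family was 0.49, and 0.25 without lips-13, which was not called and passed the count filter through the FUDR libraries alone. At an unadjusted edgeR p under 0.05, 4 lips genes were higher and 1 was lower, lips-6 (−1.16, edgeR adjusted p = 0.0657). The lips-6 gene was called lower without OP50 replicate 1 (edgeR adjusted p = 0.0389), DESeq2 called 1 lips gene lower, and limma-voom called 0.

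Of 24 lysosomal lipid and membrane genes 3 rose and 8 fell, with a median log2 fold change of −0.08. The share called, 45.8%, was near the 41.0% of all genes. Those with the smallest p fell. The CD36-like receptor gene scav-5 fell by 1.23, the lysosomal membrane protein gene lmp-1 by 1.05, the lysosomal amino acid transporter gene laat-1 by 0.70 and the mucolipin channel gene cup-5 by 0.64 on the log2 scale. The lmp-1 gene had 71.1, 62.6 and 53.8 CPM in the FUDR libraries, against 145, 119.4 and 124 CPM in the OP50 libraries, and the groups did not overlap. The sphingomyelinase genes asm-1 (0.52) and asm-2 (0.59) and the glucocerebrosidase gene gba-3 (0.29) rose. With library size only, 8 genes of this list rose and 7 fell, and without FUDR replicate 2 the asm-1 call was lost (edgeR adjusted p = 0.0538). The gba-3 call was lost with RLE scaling (edgeR adjusted p = 0.0524) and without FUDR replicate 1 (0.0968) or 2 (0.0732) or OP50 replicate 1 (0.104), 2 (0.115) or 3 (0.0874).

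Of 9 tested fasting response genes 5 were called higher and 0 lower, or 55.6% called against 41.0% of all genes, with a median log2 fold change of 1.52. Besides fil-1 and fil-2 they were the hydratase family gene ech-9 (2.06), the fatty acid desaturase gene fat-7 (1.46) and the carnitine palmitoyltransferase gene cpt-3 (2.88). The cpt-3 level was low, at 22, 24 and 27 counts in the FUDR libraries and 3 counts in each OP50 library. Both cpt-3 and fil-2 passed the count filter through the FUDR libraries alone. Without them 3 of 7 genes rose and 0 fell, near the 41.0% called over all genes, and the median was 1.46. The glyoxylate cycle gene icl-1 spread widely, at 578, 267 and 104 CPM in FUDR against 86.8, 148 and 95.8 CPM in OP50, and was not called (edgeR adjusted p = 0.0585). It was called higher with upper quartile scaling (1.66, edgeR adjusted p = 0.0331) and without FUDR replicate 3 (1.94, edgeR adjusted p = 0.0422). At an unadjusted edgeR p under 0.05, 0 members were lower, and DESeq2 and limma-voom also called 0 lower. Without OP50 replicate 1, acs-2 rose by 4.33 (edgeR adjusted p = 0.00426) and acdh-1 fell by 1.54 on the log2 scale (edgeR adjusted p = 0.0138). Without OP50 replicate 2, the dehydrogenase gene hacd-1 fell by 0.52 (edgeR adjusted p = 0.0188). The list was written with earlier results of these data known, and fil-1 and fil-2 also stand in the cytosolic list. It was not sorted by the direction in which fasting changes each gene, so its count and median do not measure a fasting response.

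**Figure D4:**
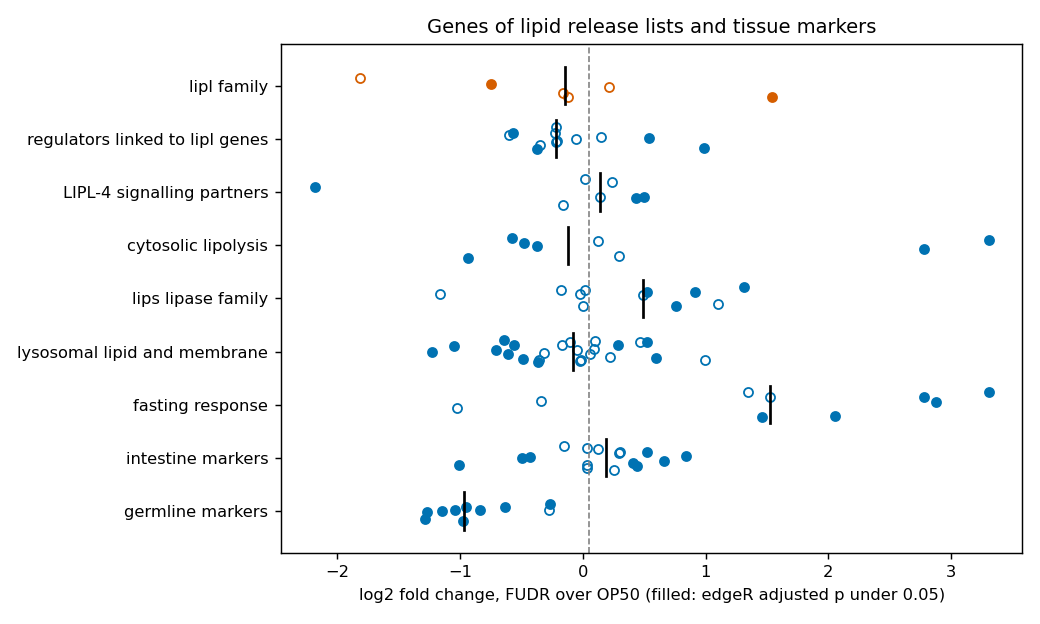
Log2 fold change, FUDR over OP50 (horizontal axis), of the tested genes of the lipl family, 6 lists of related genes and 2 lists of tissue markers (rows), with filled points at an edgeR adjusted p under 0.05. Black bars are list medians and the dashed line is the median of all tested genes, 0.05. The lipl genes lie on both sides of it.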

How the data were processed

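RNA of 3 FUDR and 3 OP50 libraries of whole worms was isolated and sequenced after poly(A) selection, per the labels. The deposited values are raw gene counts, which the authors made with STAR and HTSeq on WBcel235, per the submitters' processing notes. Not given in the sources used here are tool versions, the strand setting and the annotation release. The 5 HTSeq summary rows, between 4.55% and 5.33% of counts per library, stayed out of library sizes and tests. Ensembl release 115 held all 46926 identifiers and gave positions and exon lengths.

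The whole table was tested in edgeR 4.0.16 (R 4.3.3) after filterByExpr (minimum count 10, minimum total count 15), by TMM scaling and a robust quasi-likelihood F test. Benjamini-Hochberg adjustment ran over 17022 genes with a threshold of 0.05. The filter kept 6 of the 8 members. SE is the size of a log2 fold change over the square root of F. CPM values use TMM-scaled library sizes, and log2 CPM a prior count of 2. Count floors are 3 counts and cover counting error only.

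Alternatives were DESeq2 1.42.0, limma-voom (limma 3.58.1), other scalings, other count filters, a fit without robust estimation, a block for the replicate number and leaving out each library. No label says that replicates were separate cultures, and p-values therefore reflect a spread that may be technical. Members, lists and tests were chosen with earlier results of these data known. All 8 members are named. From each pathway list up to 4 called genes with the smallest p are named, and further list genes, the markers' libraries and neighbouring genes were chosen after their values were seen. Of 9 symbols in the cytosolic lipolysis list, 8 were found.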

Additional observations from a re-analysis of the deposited data

How the results depend on the processing

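The calls of lipl-1 and lipl-5 held in each of the 15 alternatives run for them. The lipl-1 log2 fold change ran from 1.37 to 1.77 and that of lipl-5 from −0.79 to −0.52. Over the alternatives 2 or 3 members were called, the third being lipl-7, whose value ran from 0.17 to 0.44. Between 5006 and 7745 of all genes were called, against 6979. Of these calls the share higher in FUDR was 48.7% in the TMM fit, 66.6% after upper quartile scaling and 75.1% by library size only. With the replicate number as a block, 6762 genes and the same 2 members were called. Over all tested genes, libraries with the same number showed little joint deviation (r from −0.017 to 0.058), which cannot exclude that they were paired. The block lowered the SE of lipl-2 from 0.216 to 0.0919, and it was still not called (edgeR adjusted p = 0.186). For lipl-5 the block raised the SE from 0.0969 to 0.111.

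Members that were not called changed sign in some settings, where the cause was not tested. With library size only, lipl-2 was at 0.052 and lipl-6 at 0.11, and with upper quartile scaling lipl-6 was at 0.032. With 1 library left out, lipl-2 ran from −0.34 to 0.030, lipl-6 from −0.37 to 0.066 and lipl-3 from −2.39 to 1.44, and lipl-3 was at 0.33 in limma-voom. With the 5 CPM filter lipl-3 and lipl-6 were not tested. Exon length by longest transcript in place of the union of exons left the order of levels as it was. Depth limits lipl-3, lipl-4 and lipl-8, with at most 155, 21 and 2 counts in a library.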

Other observations

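The nearest protein-coding genes on either side of the 8 members were looked up after the members' values were seen. Of these 16 genes 12 were tested, and 3 rose and 3 fell, against 41.0% called over all genes. The dehydrogenase/reductase family gene dhrs-4, which lies 915 bases downstream of lipl-1 on the same strand, had 30.7, 30.4 and 23.6 CPM in the FUDR libraries, against 10.4, 12.6 and 12.7 CPM in the OP50 libraries. It rose by 1.25 ± 0.133 on the log2 scale (SE, edgeR adjusted p = 0.000275). Upstream of lipl-1, on the same strand and 2764 bases away, the basement membrane gene nid-1 fell by 0.55 (edgeR adjusted p = 0.00122). The genes on either side of lipl-5, ZK6.8 (0.01, edgeR adjusted p = 0.979) and ZK6.6 (−0.59, edgeR adjusted p = 0.146), were not called.

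The lipl-2 and lipl-7 genes did not pass the test themselves. Beside lipl-2, ztf-7 fell by 0.42 (edgeR adjusted p = 0.0219) and F46B6.9 rose by 1.23 on the log2 scale (edgeR adjusted p = 0.00727). The gene ech-8, a member of the enoyl-CoA hydratase family, lies 101 bases downstream of lipl-7 on the same strand. It had 15.4, 14.8 and 9.68 CPM in the FUDR libraries, against 6.32, 7.77 and 8.05 CPM in the OP50 libraries, and rose by 0.85 ± 0.185 on the log2 scale (SE, edgeR adjusted p = 0.00673). On the other side of lipl-7, on the opposite strand, the transketolase gene tkt-1 had 495, 423 and 367 CPM in FUDR, against 875, 813 and 869 CPM in OP50, and fell by 0.99 (edgeR adjusted p = 0.000499).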
